A study of Homo sapiens with 24 samples.

Results

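HCT116 is a colorectal cancer cell line that carries wild-type p53 in its parental form, and the values below describe what irradiation added to the RNA of p53 wild-type HCT116 cells that had already been given APR-246. The comparison rested on 4 of the 24 libraries of the study, 2 from cells given 20 uM APR-246 alone and 2 from cells given 20 uM APR-246 and then 6 Gy of irradiation (the combination), and every gene of these libraries that passed a filter on low values entered it, 20668 of 60675 gene identifiers. All groups grew in McCoy 5A medium with 10% fetal bovine serum, penicillin and streptomycin, and irradiated cells were collected 72 hours after irradiation. The solvent, irradiated-only, p53 null and p53 mutant libraries entered as other conditions of the same design, with 2 libraries a group. Each p53 status was a single line, so line and p53 status cannot be told apart, and the labels number the replicates without saying whether they were separate cultures, so the tests rest on the spread between numbered libraries, which may be technical.

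Ionising radiation breaks DNA, and the ATM and CHK2 kinases then stabilise p53, a transcription factor that raises genes such as CDKN1A, an inhibitor of cyclin-dependent kinases, and MDM2, the ligase that returns p53 to a low level. APR-246 is a prodrug whose product binds cysteines, those of p53 and of glutathione included, and it was developed to refold mutant p53. DNA fragments that reach the cytosol after irradiation can also start interferon signalling. Its target genes (IFIT1 and OAS1 among them) often carry the interferon-stimulated response element, ISRE, in their promoters.

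The libraries held 53184139 to 58058729 reads, and values are CPM, reads of a gene scaled to the total of its library. Markers of the epithelium were present: EPCAM lay at 131 to 212 CPM and KRT8 at 3640.1 to 9142 CPM in the 4 libraries, although the colonic markers CDH17 and VIL1 stayed below 0.425 CPM. The summed level of 8 blood cell markers was 0.422 to 0.568 CPM with APR-246 and 0.884 to 1.61 CPM with the combination, MS4A1 and CD68 being at 0, and that of 8 fibroblast markers was 21.2 to 38.1 CPM and 31.6 to 36.9 CPM. The 10 epithelial markers summed to 7549.8 and 9757 CPM with APR-246 and to 11486 and 15976 CPM with the combination, and their part in the results below was not tested. In bulk RNA, fewer cells of a type and less RNA per cell cannot be told apart.

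The library labelled APR-246 replicate 1 stood apart from replicate 2 and lay next to a solvent library. The root mean square log2 difference over all genes was 0.25 between APR-246 library 1 and p53 wild-type solvent library 1, the smallest of all 276 pairs of libraries, while replicates of 1 group lay 0.29 to 0.81 apart. APR-246 library 1 differed from APR-246 library 2 by 0.64 and from p53 wild-type solvent library 2 by 0.69. It lay nearer to other libraries numbered 1 of this line, at 0.45 from combination library 1 and 0.46 from irradiated library 1. The 27 measured targets of ATF4, the transcription factor of the amino acid and integrated stress response, summed to 10879 CPM in APR-246 library 1 and 3704 CPM in library 2, against 10086 and 14679 CPM in the p53 wild-type solvent libraries. The p53 mutant and p53 null APR-246 libraries held 4979.5 to 6291 CPM of the same genes. Because of this, the main results are given against both APR-246 libraries singly or without library 1.

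Irradiation added to APR-246 moved few genes past the test, and most of these were higher when all 4 libraries were used. Called genes, those with a limma Benjamini-Hochberg adjusted p below 0.05, were 78 higher (0.377% of the 20668 tested) and 7 lower (0.0339%), and 1563 genes had an unadjusted p below 0.05. Among called genes at 1 CPM or more in the combination, the largest log2 differences were in GALNT5, a mucin-type O-glycosyltransferase, IFIT1, an interferon-stimulated gene, and CPA4, a carboxypeptidase. In all 85 called genes both combination libraries lay on the same side of both APR-246 libraries, a pattern that 5160 genes showed upward (25.0%) and 2279 downward (11.0%) over all genes. Of the 78 genes, 66 were protein coding and 21 stayed below 1 CPM on average in the combination. Without APR-246 library 1 the test called 10 genes higher and 5 lower, 9 of them among the 85. Without combination library 2 it called 15 higher and 0 lower, 12 of them among the 85. Without APR-246 library 2 it called 58 higher and 58 lower, 49 of these 116 among the 85, so that the upward excess was not seen there. Without combination library 1 it called 71 higher and 5 lower, 45 of these 76 among the 85. The recovered read counts gave 11 calls with edgeR and 211 with DESeq2. The median log2 difference of all genes was 0.02.

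**Figure D1:**
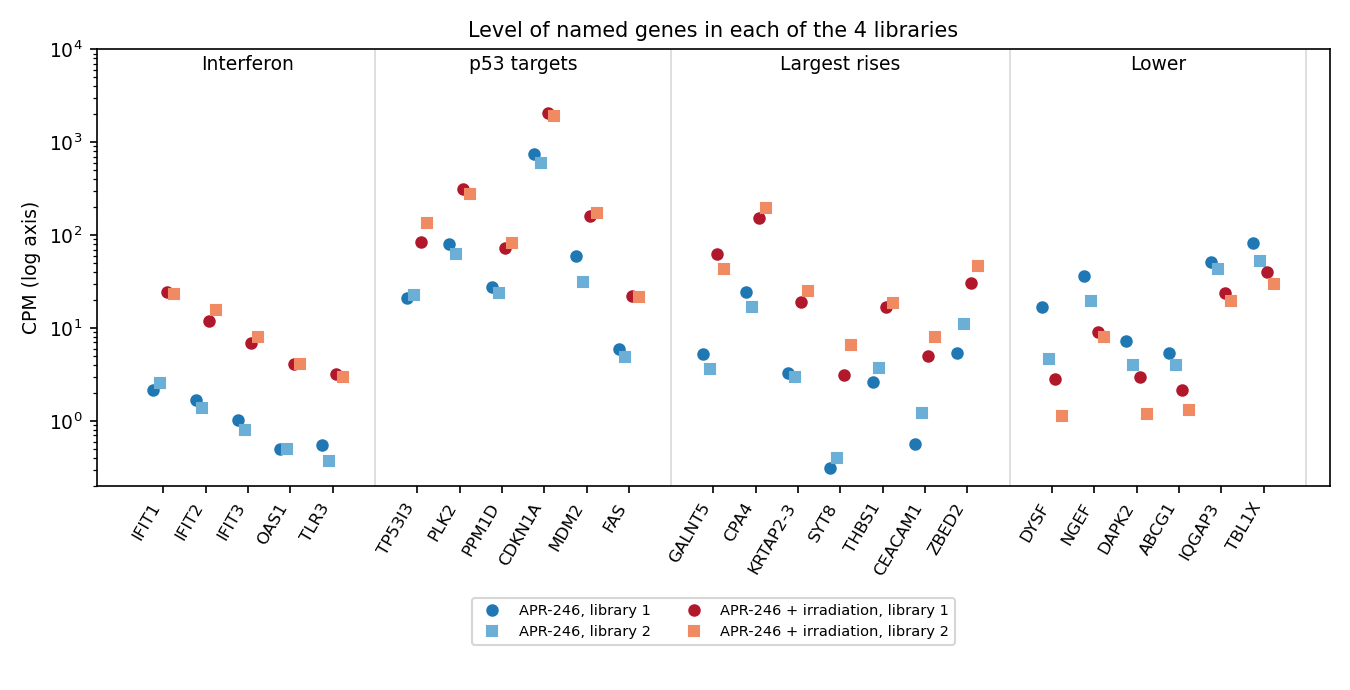
Level of named genes in each of the 4 libraries, in CPM on a log axis. Blue symbols are the APR-246 libraries and red symbols the combination libraries (circle, library 1; square, library 2). For every gene drawn, both red symbols lie on 1 side of both blue symbols, as for IFIT1 at 2.17 and 2.57 against 24.2 and 23.2 CPM.

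Promoters of 6 called genes are printed here as examples of 2 elements, the ISRE and the p53 half-site. CPA4 and PTCHD4 were not on the list of p53 targets used below. Each is the 250 bases before the start of transcription, 5′ to 3′, from the RefSeq promoter table of GRCh38.p14, which holds 13012 of the genes tested. In the first 3, capitals mark the ISRE, searched on both strands as GAAA and GAAA with 2 bases of any kind between them (TTTC and TTTC on the other strand).
IFIT1, chr10:89392373-89392622, plus strand: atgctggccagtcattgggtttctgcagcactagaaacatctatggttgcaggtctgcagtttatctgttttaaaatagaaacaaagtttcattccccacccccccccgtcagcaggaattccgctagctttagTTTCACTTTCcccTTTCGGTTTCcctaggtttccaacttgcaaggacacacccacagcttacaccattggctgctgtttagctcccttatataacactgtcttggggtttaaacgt
IFIT3, chr10:89327747-89327996, plus strand: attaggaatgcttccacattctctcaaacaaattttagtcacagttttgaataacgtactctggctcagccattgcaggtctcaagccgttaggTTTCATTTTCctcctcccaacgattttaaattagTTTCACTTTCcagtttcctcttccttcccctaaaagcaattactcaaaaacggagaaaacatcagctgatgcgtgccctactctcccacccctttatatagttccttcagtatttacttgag
IFI44, chr1:78649539-78649788, plus strand: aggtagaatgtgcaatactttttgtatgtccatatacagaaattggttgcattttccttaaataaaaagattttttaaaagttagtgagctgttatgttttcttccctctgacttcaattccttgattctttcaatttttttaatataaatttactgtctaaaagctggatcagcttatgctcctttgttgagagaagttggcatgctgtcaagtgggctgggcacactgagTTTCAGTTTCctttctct
In the other 3, capitals mark a p53 half-site, the 10-base element of which p53 binds a pair.
PTCHD4, chr6:48111198-48111447, minus strand: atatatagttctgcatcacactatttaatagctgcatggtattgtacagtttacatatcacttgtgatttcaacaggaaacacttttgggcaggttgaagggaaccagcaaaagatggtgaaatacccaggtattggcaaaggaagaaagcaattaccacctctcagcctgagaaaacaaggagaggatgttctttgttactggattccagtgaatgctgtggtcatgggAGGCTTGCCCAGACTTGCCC
PLK2, chr5:58460087-58460336, minus strand: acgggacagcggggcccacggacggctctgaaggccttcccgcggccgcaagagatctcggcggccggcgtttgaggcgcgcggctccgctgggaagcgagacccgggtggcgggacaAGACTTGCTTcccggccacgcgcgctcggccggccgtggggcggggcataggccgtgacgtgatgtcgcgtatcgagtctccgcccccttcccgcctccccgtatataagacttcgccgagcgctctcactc
CPA4, chr7:130292911-130293160, plus strand: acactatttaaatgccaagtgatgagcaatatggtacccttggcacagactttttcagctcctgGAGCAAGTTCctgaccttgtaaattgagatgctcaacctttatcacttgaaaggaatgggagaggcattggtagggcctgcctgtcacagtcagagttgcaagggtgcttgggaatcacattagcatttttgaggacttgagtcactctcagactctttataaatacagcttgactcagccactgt
The 2 elements of IFIT1 lie at positions -116 to -107 and -103 to -94 from the start, those of IFIT3 at -156 to -147 and -122 to -113, and that of IFI44 at -18 to -9. In PTCHD4, 2 half-sites abut at positions -20 to -11 and -10 to -1. This window lies upstream of PTCHD4 as GENCODE 29 places it (chr6:47878028-48068689, minus strand), so the RefSeq start differs from the start of that gene model. PLK2 holds 1 at -132 to -123, and CPA4 1 at -186 to -177. The windows of IFIT1, IFIT3, CPA4 and PLK2 run past the GENCODE 29 starts of these genes. In PLK2 (chr5:58453982-58460260, minus strand, in GENCODE 29) the half-site lies within that gene model. All positions are counted from the RefSeq start.

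Over windows of 250 bases before to 50 bases after the start, an ISRE was found in 2.71% of the promoters of all genes tested (352 of 13012). It was found in 8 of the 56 promoters of genes called higher (14.3%), namely those of IFIT1, IFIT3, IFI44, TLR3, IFNL2, CEACAM1, COL17A1 and FAT2 (the last 3 named here for the motif), and in 16 of 21 promoters of the interferon-stimulated genes listed (76.2%). A p53 half-site was found in 5 of the 56 (8.93%, those of CPA4, COL17A1, ANKRD65, PLK2 and PTCHD4), in 5 of 31 promoters of the p53 targets listed (16.1%) and in 5.49% over all genes tested. The called p53 targets TP53I3, PPM1D and SPATA18 held no half-site in these windows. The called interferon-stimulated gene OAS1 held no ISRE in its window, and the RefSeq promoter table had no entry under the symbol IFIT2. All these shares describe letters in a window and not binding.

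Interferon-stimulated genes had the highest median of the lists. Of 28 such genes measured, 5 were called higher and none lower, against 0.377% and 0.0339% of all genes tested. The 5 were IFIT1, IFIT2 and IFIT3, whose proteins bind viral RNA, OAS1, which makes the messenger that activates RNase L, and IFI44. IFIT1 (ENSG00000185745, chr10:89392546-89406486) lay at 2.17 and 2.57 CPM in APR-246 libraries 1 and 2 and 24.2 and 23.2 CPM in combination libraries 1 and 2. The groups were far apart, a 10.0-fold rise with a log2 difference of 2.92 ± 0.25 (SE; adjusted p = 3.61e-05). IFIT2 lay at 1.69 and 1.4 CPM with APR-246 and 11.9 and 15.5 CPM with the combination, a log2 difference of 2.63 ± 0.33 (SE; adjusted p = 0.0023). IFIT3 lay at 1.03 and 0.808 CPM with APR-246 and 6.86 and 7.93 CPM with the combination, a log2 difference of 2.32 ± 0.34 (SE; adjusted p = 0.00585). In each of these 3 genes both combination libraries held over 6 times the level of either APR-246 library.

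OAS1 lay at 0.499 and 0.496 CPM with APR-246 and 4.15 and 4.11 CPM with the combination, a log2 difference of 2.05 ± 0.39 (SE; adjusted p = 0.0269). IFI44 was at 0.0172 and 0.129 CPM with APR-246 and 1.4 and 1.91 CPM with the combination, so that 1 of its APR-246 libraries held less than 3 reads (adjusted p = 0.0171). Another 3 called genes of the same response were named after their values were seen: TLR3, a sensor of double-stranded RNA, IFNL2, an interferon lambda, and CCL5, a chemokine. TLR3 lay at 0.551 and 0.367 CPM with APR-246 and 3.23 and 2.98 CPM with the combination (adjusted p = 0.0106). IFNL2 lay at 0.0344 and 0.0735 CPM with APR-246 and 0.53 and 0.667 CPM with the combination (adjusted p = 0.0281), and CCL5 at 0 and 0.0735 CPM with APR-246 and 1.18 and 0.927 CPM with the combination (adjusted p = 0.034). All of these started from under 0.6 CPM with APR-246 alone.

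Over the whole list of 28, the median log2 difference was 1.07, against 0.02 over all genes tested, and was 1.00 against APR-246 library 1 and 1.02 against library 2. The groups did not overlap in 22 genes upward and 1 downward, against 25.0% and 11.0% of all genes tested. The 5 genes with a difference below 0 were IFI35, ISG20, MX1, IFITM3 and IFITM1, none past the test. Without APR-246 library 1, IFIT1 (2.69, adjusted p = 0.00147) and IFIT2 (2.61, adjusted p = 0.0346) passed the test, IFIT3 (2.33, adjusted p = 0.0598), IFI44 (1.58, adjusted p = 0.179) and OAS1 (1.97, adjusted p = 0.185) did not.

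Targets of p53 were the other group with a high median, 0.92 over 40 genes, and it was 0.85 against APR-246 library 1 and 1.13 against library 2. The groups did not overlap in 33 of the 40, all upward, against 25.0% of all genes tested upward. Past the test were 4, all higher, against 0.377% of all genes tested: TP53I3, PLK2, PPM1D and SPATA18. TP53I3 is a quinone reductase, PLK2 a polo-like kinase, PPM1D the WIP1 phosphatase that switches p53 signalling off and SPATA18 a mitochondrial quality control factor. TP53I3 lay at 21.2 and 22.6 CPM in APR-246 libraries 1 and 2 and 84.8 and 135 CPM in combination libraries 1 and 2, a 5.02-fold rise with a log2 difference of 2.11 ± 0.41 (SE; adjusted p = 0.0285). PLK2 lay at 80.6 and 62.5 CPM with APR-246 and 312 and 274 CPM with the combination, a log2 difference of 1.88 ± 0.33 (SE; adjusted p = 0.0155). PPM1D lay at 27.8 and 23.7 CPM with APR-246 and 72.7 and 82.9 CPM with the combination, a log2 difference of 1.42 ± 0.24 (SE; adjusted p = 0.0125). SPATA18 was weakly expressed, at 0.482 and 0.312 CPM with APR-246 and 1.43 and 1.19 CPM with the combination (log2 difference 0.89 ± 0.14 SE, adjusted p = 0.00813). PTCHD4, a patched-related gene whose promoter is printed above and which was named after its values were seen, lay at 1.76 and 1.14 CPM with APR-246 and 6.54 and 2.87 CPM with the combination (adjusted p = 0.0483). TNFRSF10C, a decoy receptor for the death ligand TRAIL, was the called member among 13 death receptors and ligands, against 0.377% of all genes tested. It lay at 4.0 and 1.8 CPM with APR-246 and 10.0 and 8.92 CPM with the combination (log2 difference 1.48 ± 0.28 SE, adjusted p = 0.0281).

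The best known targets of p53 were apart between the groups but did not pass the test. CDKN1A lay at 751 and 592 CPM in APR-246 libraries 1 and 2 and 2044 and 1930.2 CPM in combination libraries 1 and 2, a log2 difference of 1.42 ± 0.40 (SE; adjusted p = 0.198). MDM2 lay at 59.3 and 31.2 CPM with APR-246 and 162 and 173 CPM with the combination, a log2 difference of 1.79 ± 0.58 (SE; adjusted p = 0.34). FAS, a death receptor, lay at 5.94 and 4.83 CPM with APR-246 and 21.9 and 21.8 CPM with the combination, a log2 difference of 1.78 ± 0.47 (SE; adjusted p = 0.154). With the GC slope as a covariate (a slope of each library's values on the GC percent of genes), these 3 passed, with adjusted p of 1.05e-06, 4.73e-06 and 0.000285. GDF15, a secreted stress protein raised by both p53 and ATF4, lay at 2168 and 589 CPM with APR-246 and 1585 and 2028 CPM with the combination, so that its combination libraries lay between the 2 APR-246 libraries. Without APR-246 library 1, PLK2, PPM1D, TP53I3 and SPATA18 had adjusted p of 0.116, 0.118, 0.217 and 0.0543, with log2 differences of 1.91, 1.38, 1.91 and 0.96.

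The GC slope moved the number of calls more than any other single setting. The slope ran from -0.40 to 0.05 log2 per 10 percent of GC in the APR-246 libraries and from -0.50 to -0.23 in the combination libraries. With it in the model, 982 genes were higher (4.75%) and 761 lower (3.68%), and all 85 calls of the test without it were kept. Of the p53 targets, 29 of 40 were then higher and none lower, and of the interferon-stimulated genes 15 of 28 were higher.

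Among called genes at 1 CPM or more in the combination, the largest log2 differences outside these 2 groups were in GALNT5, CPA4, KRTAP2-3 and SYT8. GALNT5 lay at 5.2 and 3.67 CPM in APR-246 libraries 1 and 2 and 63.3 and 43.2 CPM in combination libraries 1 and 2, a 12-fold rise with a log2 difference of 3.28 ± 0.47 (SE; adjusted p = 0.00511). CPA4 lay at 24.5 and 16.9 CPM with APR-246 and 152 and 196 CPM with the combination, an 8.42-fold rise with a log2 difference of 2.90 ± 0.25 (SE; adjusted p = 3.61e-05). With IFIT1 it had the lowest p of all genes tested. KRTAP2-3, a keratin-associated protein, lay at 3.27 and 3.01 CPM with APR-246 and 19.3 and 24.8 CPM with the combination (log2 difference 2.46 ± 0.35 SE, adjusted p = 0.00511). SYT8, a synaptotagmin, lay at 0.31 and 0.404 CPM with APR-246 and 3.13 and 6.58 CPM with the combination (log2 difference 2.39 ± 0.33 SE, adjusted p = 0.00506). CEACAM1, a cell adhesion molecule, lay at 0.568 and 1.23 CPM with APR-246 and 4.95 and 8.06 CPM with the combination (log2 difference 2.15 ± 0.31 SE, adjusted p = 0.00511). The combination libraries thus held 7.02 to 13.6 times the mean CPM of the APR-246 libraries for these 5 genes.

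THBS1, the matrix protein thrombospondin 1, lay at 2.6 and 3.73 CPM with APR-246 and 16.9 and 18.5 CPM with the combination (log2 difference 2.17 ± 0.33 SE, adjusted p = 0.00674). ZBED2, a zinc finger protein of keratinocytes, lay at 5.44 and 11.0 CPM with APR-246 and 30.6 and 46.7 CPM with the combination (log2 difference 2.06 ± 0.35 SE, adjusted p = 0.0125). Of 17 keratins measured, KRT6A and KRT6B were called higher and none lower, against 0.377% and 0.0339% of all genes tested. Both are keratins of wounded and stratified epithelia. KRT6A lay at 0.241 and 0.294 CPM with APR-246 and 2.76 and 3.35 CPM with the combination (adjusted p = 0.0281), and KRT6B at 0 and 0.0367 CPM with APR-246 and 0.919 and 0.519 CPM with the combination (adjusted p = 0.0159), at or below the 3 reads that set the floor in both APR-246 libraries. The keratins had a median log2 difference of 0.48, and 0.58 and 0.68 against the APR-246 libraries singly. Another 2 called genes, named after their values were seen, were SERPINB5 (maspin) at 22.7 and 25.8 CPM with APR-246 and 106 and 108 CPM with the combination and COL17A1, a hemidesmosome collagen, at 9.4 and 7.92 CPM with APR-246 and 28.7 and 42.0 CPM with the combination. Their adjusted p were 0.00463 and 0.00615. Without APR-246 library 1, CPA4 passed (3.01, adjusted p = 0.00147). GALNT5 had an adjusted p of 0.0543, SYT8 0.0598, KRTAP2-3 0.0605, CEACAM1 0.0835, THBS1 0.106 and ZBED2 0.154.

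Of the 85 called genes, 6 passed the test in all 4 fits that left out 1 of the 4 libraries: CPA4, IFIT1, IFIT2, FRMPD2, LY6D and RIMS4. FRMPD2, a scaffold protein, lay at 0.138 and 0.257 CPM with APR-246 and 1.41 and 2.15 CPM with the combination (log2 difference 1.54 ± 0.15 SE, adjusted p = 0.00016). RIMS4 lay at 0.207 and 0.331 CPM with APR-246 and 1.64 and 1.76 CPM with the combination and LY6D, a surface protein of squamous epithelium, at 0.276 and 0.367 CPM with APR-246 and 1.25 and 1.69 CPM with the combination. These 3 genes were named after their values were seen, and all 3 stayed near 2 CPM or below in the combination. Another 6 calls passed in 3 of the 4 fits, 26 in 2, 21 in 1 and 26 in none. GALNT5 missed the threshold in the fit without APR-246 library 1. IFIT3, IFI44, KRTAP2-3, SYT8, CEACAM1, THBS1, ZBED2, PPM1D, SPATA18, SERPINB5, COL17A1, ABCG1, DYSF and DAPK2 missed it in 2, the fits without APR-246 library 1 and without combination library 2. TP53I3, PTCHD4, DKK1 and NGEF passed in 1 fit, with log2 differences over the 4 fits of 1.71 to 2.50 for TP53I3 (adjusted p up to 0.41). PLK2, OAS1, TNFRSF10C, KRT6A, KRT6B, CCND1, H2BC5, IQGAP3, AC005586.2, TBL1X, TLR3, IFNL2 and CCL5 passed in none of the 4, although PLK2 ran only from 1.84 to 1.91 (adjusted p from 0.065 to 0.15).

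Single members of other lists were called higher. Over all genes tested the share called higher was 0.377%. Of 16 WNT targets measured, CCND1, the G1 cyclin D1, and DKK1, a secreted WNT inhibitor, rose. CCND1 lay at 576 and 496 CPM with APR-246 and 1429 and 1567 CPM with the combination, a log2 difference of 1.33 ± 0.26 (SE; adjusted p = 0.0288). DKK1 lay at 62.8 and 70.4 CPM with APR-246 and 232 and 205 CPM with the combination, a log2 difference of 1.55 ± 0.30 (SE; adjusted p = 0.0281). The median of this list was 0.23, against 0.61 and -0.19 relative to the APR-246 libraries singly, so the list itself had no common direction. H2BC5 was the called member of 15 replication-dependent histone genes, whose mRNAs normally lack a poly(A) tail and are therefore sampled poorly by oligo(dT) selection. It lay at 7.27 and 6.58 CPM with APR-246 and 18.8 and 20.2 CPM with the combination, a log2 difference of 1.28 ± 0.24 (SE; adjusted p = 0.0269). Without APR-246 library 1 the adjusted p of CCND1, DKK1 and H2BC5 were 0.187, 0.248 and 0.187. NRG1, a ligand of the ERBB receptors, KLK5 and KLK7, skin proteases of the kallikrein family, did not pass the test. NRG1 lay at 0.31 and 1.32 CPM with APR-246 and 2.88 and 6.3 CPM with the combination (1.80, adjusted p = 0.0694). KLK5 lay at 3.55 and 8.39 CPM with APR-246 and 38.7 and 75.6 CPM with the combination (3.02, adjusted p = 0.0875), and KLK7 at 59.0 and 57.2 CPM with APR-246 and 158 and 238 CPM with the combination (1.58, adjusted p = 0.141).

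In all, 7 genes were called lower. ABCG1, a cholesterol exporter, lay at 5.46 and 3.97 CPM in APR-246 libraries 1 and 2 and 2.14 and 1.32 CPM in combination libraries 1 and 2, a log2 difference of -1.34 ± 0.23 (SE; adjusted p = 0.0155). IQGAP3, a cytoskeletal scaffold of dividing cells, lay at 51.1 and 42.8 CPM with APR-246 and 24 and 19.5 CPM with the combination, a log2 difference of -1.24 ± 0.24 (SE; adjusted p = 0.0281). NGEF, a guanine nucleotide exchange factor, lay at 36.4 and 19.6 CPM with APR-246 and 9.01 and 8.08 CPM with the combination, a log2 difference of -1.73 ± 0.35 (SE; adjusted p = 0.042). In these 3 the lower of the APR-246 libraries lay at least 1.7 times above the higher combination library. TBL1X, a subunit of a transcriptional corepressor, lay at 81.8 and 52.3 CPM with APR-246 and 40.2 and 29.8 CPM with the combination (-1.06 ± 0.22 SE, adjusted p = 0.0431). DYSF, the membrane repair protein dysferlin, lay at 17.0 and 4.59 CPM with APR-246 and 2.86 and 1.13 CPM with the combination (-2.12 ± 0.43 SE, adjusted p = 0.0431), and DAPK2, a death-associated kinase, at 7.22 and 3.99 CPM with APR-246 and 2.97 and 1.2 CPM with the combination (-1.38 ± 0.28 SE, adjusted p = 0.0445). AC005586.2, a non-coding gene, lay at 1.65 and 1.14 CPM with APR-246 and 0.424 and 0.297 CPM with the combination (-1.17 ± 0.23 SE, adjusted p = 0.034). For DYSF, TBL1X and DAPK2 the 2 APR-246 libraries differed more from each other, on the log2 scale of these CPM, than library 2 did from combination library 1. None of the 7 passed without APR-246 library 1, where their adjusted p ran from 0.131 for ABCG1 to 0.339 for DYSF, and their log2 differences from -1.45 for NGEF to -0.89 for TBL1X.

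Genes of G2 and mitosis had a median log2 difference of -0.47 over 30 members, none called in either direction. With the GC slope, 8 of the 30 were called lower, against 3.68% of all genes tested, and none higher. The groups did not overlap in 10 downward and 1 upward, against 11.0% and 25.0% of all genes tested. The median was -0.17 against APR-246 library 1 and -0.56 against library 2. CDC25C, the phosphatase that activates CDK1 for mitosis, lay at 10.0 and 11.4 CPM with APR-246 and 5.82 and 5.15 CPM with the combination (-1.04 ± 0.27 SE, adjusted p = 0.147). CCNB2, a mitotic cyclin, lay at 34.8 and 40.3 CPM with APR-246 and 22.8 and 24.7 CPM with the combination (-0.80 ± 0.26 SE, adjusted p = 0.342), and KIF2C, a kinesin of the kinetochore, at 68.6 and 76.9 CPM with APR-246 and 44.2 and 39.8 CPM with the combination (-0.94 ± 0.34 SE, adjusted p = 0.437). In all 3 both combination libraries were below both APR-246 libraries. CCNB1, cyclin B1, lay at 92.5 and 166 CPM with APR-246 and 88.2 and 97.2 CPM with the combination, and PLK1, a mitotic kinase, at 104 and 225 CPM with APR-246 and 71.6 and 105 CPM with the combination, where APR-246 library 2 was the highest of the 4. Adjusted p were 0.876 and 0.91. The cell cycle homology region (CHR), an element of promoters silenced by the DREAM complex, was searched as TTTGAA and TTCGAA on both strands. It was found in 16 of 24 promoters of this list (66.7%) and in 11.4% of those of all genes tested. Among called genes it was found in 11 of 56 promoters of those called higher (19.6%) and 1 of 5 of those called lower.

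ATF4 targets gave the reading that depended most on which APR-246 library was taken. Their median log2 difference was -1.79 against APR-246 library 1 and 0.09 against library 2, and -0.81 in the estimate from both, with no call among 27. In 25 of the 27, both combination libraries lay below APR-246 library 1, and in 16 both lay between the 2 APR-246 libraries. Over all 20668 genes tested these counts were 7223 and 4984. DDIT4, an inhibitor of mTORC1, lay at 354 and 63.7 CPM with APR-246 and 53.4 and 67.5 CPM with the combination. CHAC1, an enzyme that degrades glutathione, lay at 133 and 10.9 CPM with APR-246 and 13.4 and 19.7 CPM with the combination. ASNS, asparagine synthetase, lay at 12.5 and 0.845 CPM with APR-246 and 1.91 and 1.06 CPM with the combination. In each of these, APR-246 library 1 was high and the other 3 libraries were within a few-fold of each other.

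The levels of these genes in APR-246 library 1 were near those of p53 wild-type solvent libraries 1 and 2, which were 352 and 506 CPM for DDIT4 and 141 and 272 CPM for CHAC1. Without library 1, DDIT4 differed by -0.39 (adjusted p = 0.815), CHAC1 by 0.26 (adjusted p = 0.909) and ASNS by 0.30 (adjusted p = 0.859), on the log2 scale. PHGDH, which opens serine synthesis, was lower than both APR-246 libraries, at 409.7 and 198 CPM with APR-246 and 65.6 and 75.5 CPM with the combination (-2.16 ± 0.64 SE, adjusted p = 0.256). AARS1, the alanyl-tRNA synthetase, was also lower than both, at 1196 and 329 CPM with APR-246 and 255 and 181 CPM with the combination (-1.70 ± 0.47 SE, adjusted p = 0.198). ATF3, a stress transcription factor, was the member with a difference above 0, at 79.4 and 19.3 CPM with APR-246 and 95.2 and 89.4 CPM with the combination (1.07 ± 0.36 SE, adjusted p = 0.369), and without library 1 it passed the test (1.92, adjusted p = 0.006).

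**Figure D2:**
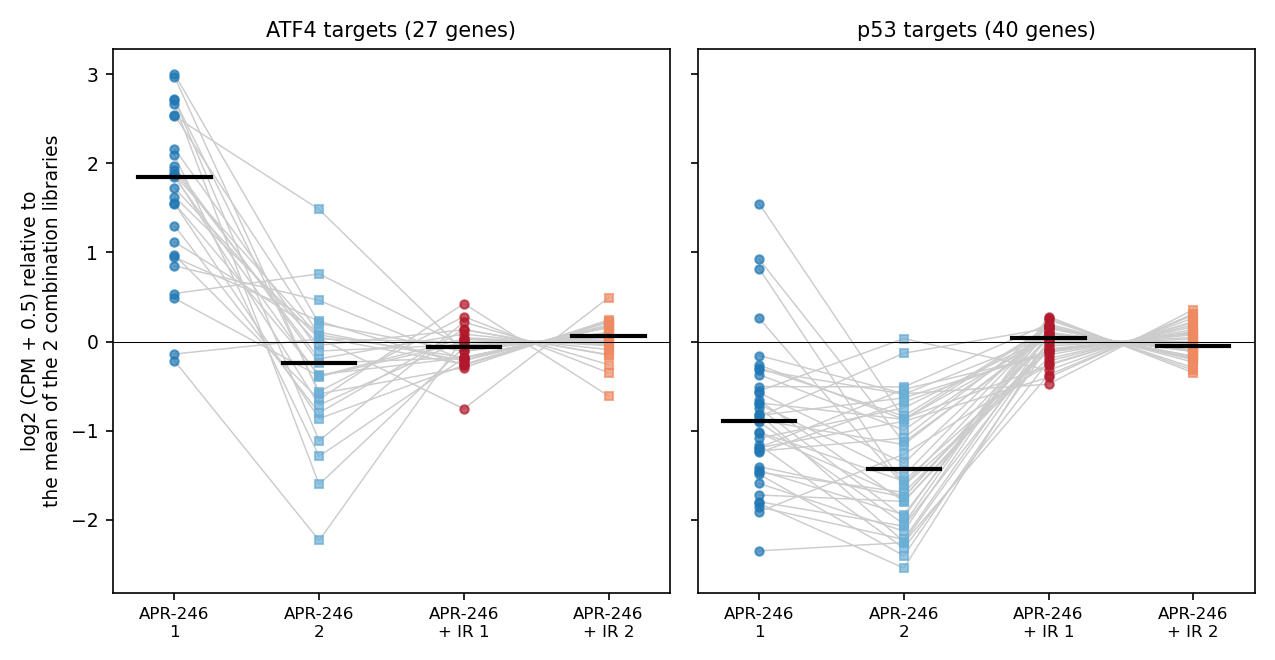
Members of 2 lists in each library, as log2 of deposited CPM plus 0.5 relative to the mean of the 2 combination libraries. Each grey line is a gene and each black bar a median. Of the 4 libraries, APR-246 library 1 was highest for ATF4 targets, where 25 of 27 exceeded both combination libraries, and p53 targets were low in both APR-246 libraries.

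Several other lists changed sign between the 2 APR-246 libraries. The medians were 0.37 against library 1 and -0.60 against library 2 for 33 DNA replication genes. They were 0.55 and -0.87 for 23 cholesterol synthesis genes, 0.18 and -1.22 for 23 hypoxia and glycolysis genes, and -0.69 and 0.41 for 16 genes of the senescence secretome. None of these 4 lists held a called gene. Among lists with 1 sign against both and no called member were heat shock (0.86 and 0.21, 20 genes), YAP and TEAD targets (0.41 and 0.67, 13 genes), mitochondrially encoded mRNAs (0.49 and 0.47, 13 genes) and metallothioneins (-0.53 and -1.13, 4 genes). MT-ND2, a subunit of respiratory complex I, lay at 2637 and 2360.0 CPM with APR-246 and 4662 and 4272 CPM with the combination (0.69 ± 0.36 SE, adjusted p = 0.731).

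**Figure D3:**
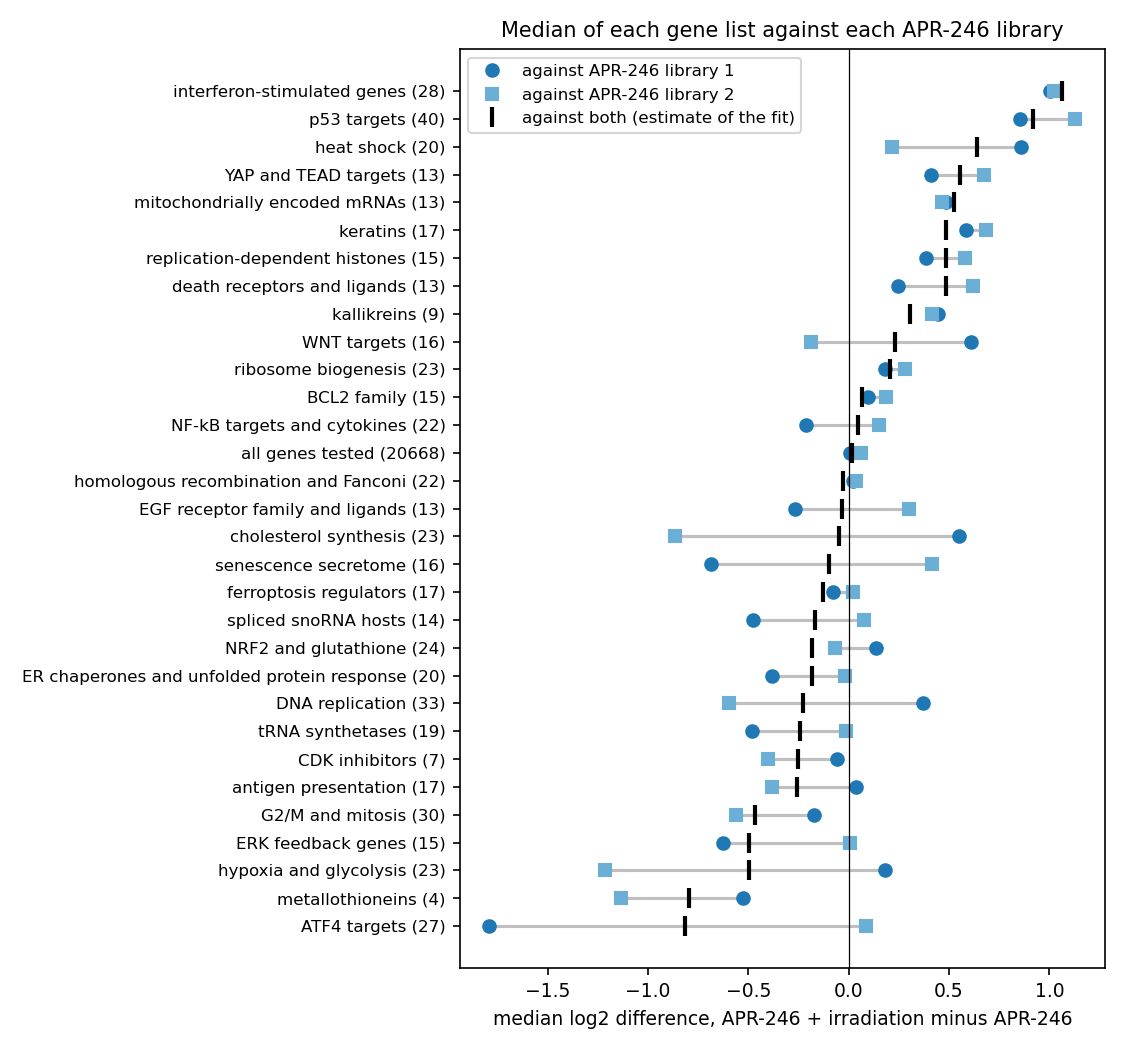
Median log2 difference of each gene list, combination minus APR-246, against APR-246 library 1 (circles), library 2 (squares) and in the estimate from both (bars). The number of genes is in brackets. Interferon-stimulated genes (1.07) and p53 targets (0.92) lie highest in the estimate from both, while ATF4 targets run from -1.79 to 0.09.

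The same 6 Gy given without APR-246 provided libraries that shared none with the comparison above. Irradiated against solvent p53 wild-type cells gave 200 genes higher (0.968%) and 122 lower (0.590%). Of the 78 genes called higher by irradiation with APR-246, 54 were also called higher without it, which was 69.2% of the 78 and 27.0% of the 200. Of the 7 called lower, 5 were also lower without it, 71.4% of the 7 and 4.10% of the 122. No gene was called in opposite directions. The median log2 difference of the 78 was 1.37 with APR-246 and 1.31 without it. APR-246 library 1 lay nearest to solvent library 1, so both comparisons hold a like starting library, and the part of this in the overlap was not tested.

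CPA4 showed the likeness in single libraries. It lay at 19.3 and 7.96 CPM with solvent and 121 and 62.1 CPM after irradiation alone, a log2 difference of 2.76 ± 0.25 (SE; adjusted p = 3.62e-05), against 2.90 with APR-246. IFIT1 lay at 1.84 and 1.15 CPM with solvent and 11.1 and 10.7 CPM after irradiation alone, a log2 difference of 2.56 ± 0.25 (SE; adjusted p = 6.44e-05). Both combination libraries lay above both irradiated libraries. IFIT2 lay at 4.89 and 3.31 CPM after irradiation alone, and its difference was 1.74 without and 2.63 with APR-246. The test of whether the response to irradiation differed with APR-246 called no gene in either direction by limma, edgeR or DESeq2, with 640 genes at an unadjusted p below 0.05. For IFIT2 the difference of the 2 responses was 0.89 ± 0.46 (SE), for CPA4 0.14 ± 0.35 and for DDIT4 1.26 ± 0.72. The median SE of such a difference over all genes was 0.45. Without irradiated library 1 this test called 85 genes, without APR-246 library 1 it called 9 and without combination library 1 it called 2.

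**Figure D4:**
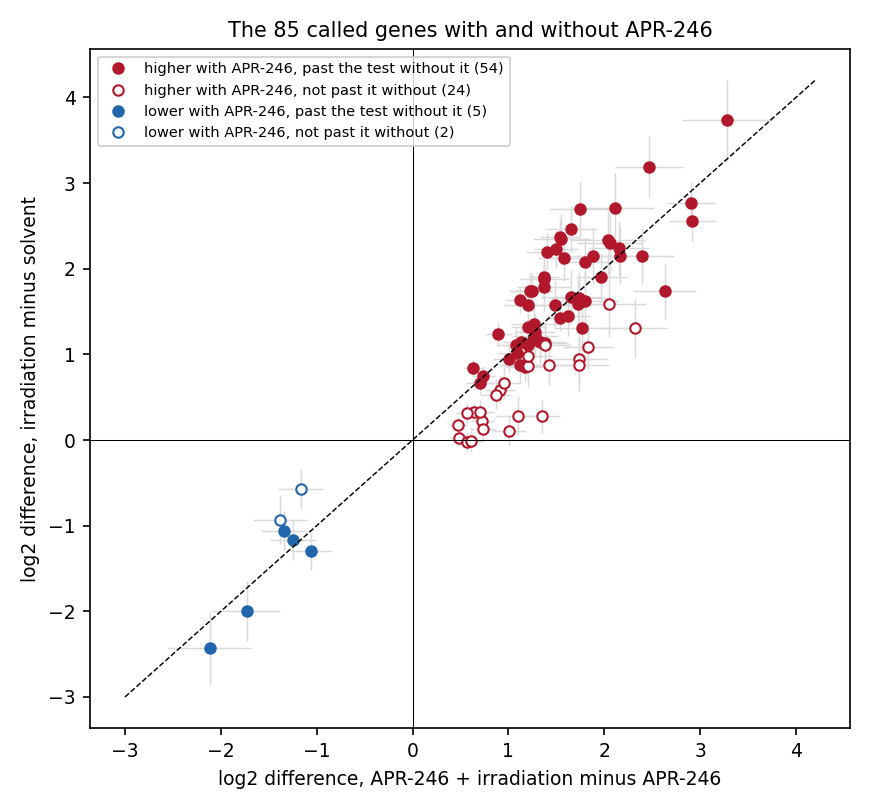
The 85 called genes, with the log2 difference of irradiation in the presence of APR-246 on the horizontal axis and in its absence on the vertical axis (grey bars, SE; dashed line, equal values). Filled points also passed the test without APR-246 (54 higher, 5 lower). The genes were chosen on the horizontal axis. The libraries of the vertical axis are separate, but each gene has the same SE on both axes, from the same fit.

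In the p53 null and p53 mutant lines the same addition of irradiation to APR-246 called fewer genes. In the p53 null line 5 genes were higher (0.0242%) and none lower, with 1149 at an unadjusted p below 0.05 by limma. In the p53 mutant line no gene was called, with 708 at an unadjusted p below 0.05 by limma, and edgeR and DESeq2 were not run for this comparison. A model that included the GC slope gave 271 upward and 273 downward calls for the p53 null line. For the p53 mutant line it gave 67 upward and 9 downward calls, against 982 and 761 for p53 wild-type cells. The 78 genes called higher in p53 wild-type cells had a median log2 difference of 0.37 in p53 null and 0.34 in p53 mutant cells, and 70 and 69 of them were above 0. As these genes were chosen for their difference in p53 wild-type cells, their smaller values in the other lines are a description. Of the 5 genes called in the p53 null line without the slope, 3 were among the 78, namely IFIT1, KRT6B and IFNL2. TCN1, a cobalamin-binding protein, and HSPC324 were the other two.

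IFIT1 lay at 2.28 and 2.6 CPM with APR-246 and 16.4 and 9.99 CPM with the combination in p53 null cells, a log2 difference of 2.29 ± 0.25 (SE; adjusted p = 0.00149). In p53 mutant cells it lay at 7.86 and 7.8 CPM and 20.7 and 16.9 CPM, from a higher starting level, a log2 difference of 1.08 ± 0.25 (SE; adjusted p = 0.354). The interferon-stimulated genes had a median of 0.74 in p53 null and 0.47 in p53 mutant cells, against 1.07 in p53 wild-type cells. For the p53 targets these medians were 0.05, 0.15 and 0.92. In p53 null cells CDKN1A lay at 165 and 140 CPM with APR-246 and 287 and 294 CPM with the combination. Its log2 difference there was 1.04 ± 0.40 (SE; limma adjusted p = 0.701), against 1.42 in p53 wild-type cells. The p53 wild-type minus null difference for CDKN1A was 0.38 ± 0.56 (SE; adjusted p = 0.953). For MDM2 and FAS the p53 null log2 differences were -0.09 ± 0.58 and 0.62 ± 0.47 (SE).

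PLK2 lay at 88.2 and 94.9 CPM with APR-246 and 138 and 52.7 CPM with the combination in p53 null cells, where the groups overlapped. The p53 wild-type minus p53 null difference of its response was 1.87 ± 0.46 on the log2 scale (SE; adjusted p = 0.85), which did not pass the test. For CPA4 it was 2.12 ± 0.35 (SE; adjusted p = 0.135), and likewise did not pass. H2BC5 had log2 differences of 1.28, 1.29 and 1.02 in p53 wild-type, null and mutant cells, each ± 0.24 (SE), and the p53 wild-type value differed by -0.01 and 0.26 from the other two, each ± 0.34 (SE).

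The test of the difference between lines called no gene in either direction, for p53 wild type against null (686 genes at an unadjusted p below 0.05 by limma, 0 called by edgeR and 4 by DESeq2) or against mutant (576 by limma, 0 by edgeR and 9 by DESeq2). Leaving out APR-246 library 2 of the p53 wild-type line gave 4 calls against null, leaving out combination library 1 gave 3 (and 4 against mutant), and leaving out APR-246 library 1 of the p53 mutant line gave 16 against mutant. With the GC slope, 18 genes responded more strongly upward in p53 wild-type than in null cells (0.0871%) and 3 the other way (0.0145%). Against mutant cells 58 did so (0.281%) and 18 the other way (0.0871%). PLK2 was among them in both, at 1.58 ± 0.18 (SE; adjusted p = 0.000268) against null and 1.30 ± 0.18 (SE; adjusted p = 0.00142) against mutant cells. So were CPA4 (2.02 and 2.15), TP53I3 (1.78 and 1.98), GALNT5 (1.78 and 2.81) and CCND1 (1.08 and 1.13). IFIT1 passed against mutant (1.85, adjusted p = 0.00384) and not against null cells (0.66, adjusted p = 0.459). These genes were named after their values with the GC slope were seen.

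**Figure D5:**
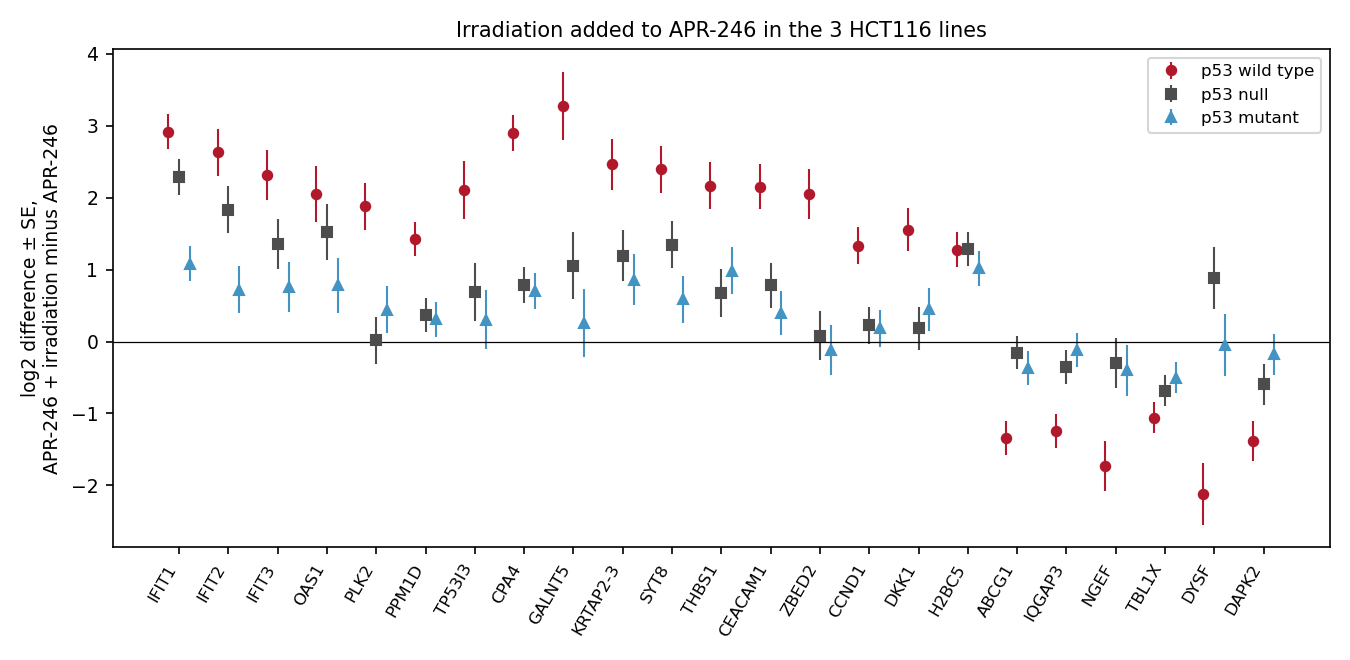
Log2 difference of the combination minus APR-246 for named genes in the 3 lines, with bars of ± 1 SE from the fit across all libraries. Interferon-stimulated genes on the left lie above 0 in each line, for IFIT1 at 2.92, 2.29 and 1.08 in p53 wild-type, null and mutant cells. PLK2 lies at 0.01 and 0.44 and ZBED2 at 0.08 and -0.12 in p53 null and mutant cells, and H2BC5 lies above 1 in all 3.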

How the data were processed

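Poly(A) RNA of 24 libraries was sequenced as paired reads of 100 bases on a BGIseq500, per the labels' protocols. The authors deposited CPM (reads per gene scaled to the library total). FastQC, STAR, Subread and featureCounts and the build GRCh38.p13 are named in the submitters' processing notes; the annotation release and strand setting are not given in the sources used here. Whole reads were recovered from the CPM steps (100% of values within 0.05 of a whole read). Of counts from 2 to 9, 74.5 to 81.5% were even, so a count may hold both mates of a fragment, while the count tests and the floor of 3 reads take each read as 1.

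Values were TMM-scaled (edgeR 4.0.16) and tested as log2(CPM + 0.5) with limma 3.58.1 (trend, robust) in R 4.3.3, with 12 group coefficients over all 24 libraries and 12 residual degrees of freedom. Genes passed filterByExpr at a minimum count of 10, and p-values were Benjamini-Hochberg adjusted over all of them. Fold changes on the log2(CPM + 0.5) scale understate those of low genes. Alternatives were edgeR and DESeq2 1.42.0 on the recovered counts, other scaling, pseudocounts and filters, a replicate block, a GC slope and leaving out each library.

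The comparison, gene lists and motifs were chosen with earlier results of these data known. Named were the 12 called genes with the largest difference in each direction at 1 CPM or more and without overlap, up to 6 called members of each list (or the 3 of smallest p), and fixed examples; other genes are marked. Promoters came from RefSeq, 1 window a gene. The check of the line labels by the level of the targeted gene is not reported here.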

Additional observations from a re-analysis of the deposited data

How the results depend on the processing

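All 85 calls kept their direction in every fit that tested them. The count of 85 became 11 with edgeR, 211 (125 higher, 86 lower) with DESeq2, 48 with a pseudocount of 0.1, 134 without a filter and 0 in a fit of the 4 libraries alone (1097 at an unadjusted p below 0.05). It became 1743 with the GC slope, and 15 to 116 with 1 library left out. With the GC slope, leaving out APR-246 library 1 or 2 gave 1368 or 2652, and combination library 1 or 2 gave 1800 or 313; these fits were chosen after seeing the data.

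A replicate block gave 277 calls (205 higher, 72 lower), a block per line 208, and a block with the GC slope 1422. The labels do not say that a number marks a shared culture. Same-numbered replicates deviated together in most groups (correlations of replicate differences of 0.41 to 0.85 within the p53 wild-type line), but those of the p53 null APR-246 group ran from -0.56 to -0.14 against the others, so the numbers were not taken as pairs.

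The difference between p53 wild type and null, 0 calls, became 4 with DESeq2, 2 with a pseudocount of 2, 11 without a filter, 21 with the GC slope, 6 with the replicate block and 18 with block and slope, and 0 to 4 with 1 library left out. The difference from p53 mutant, 0 calls, became 9 with DESeq2, 1 without TMM, 4 with a pseudocount of 2, 4 without a filter, 76 with the GC slope, 5 with the replicate block and 67 with block and slope, and 0 to 16 with 1 library left out. The difference from irradiation without APR-246, 0 calls, became 5 without a filter and 0 to 85 with 1 library left out. With the GC slope and 1 library left out (APR-246 1 and 2, combination 1 and 2 of p53 wild type, then of the other line), the count was 41, 654, 64, 10, 8, 12, 16 and 18 against null and 157, 787, 102, 19, 81, 22, 23 and 29 against mutant. Against irradiation without APR-246 it was 1381 without APR-246 library 1, 77 without irradiated library 1, 17 without combination library 1 and 0 without each other library.

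Over the fits without 1 library, log2 differences ran from -0.28 to 1.29 for GDF15, -3.0 to 0.26 for CHAC1 and -2.71 to 0.30 for ASNS. GDF15 reversed without APR-246 library 2 (-0.28, and -0.33 with the GC slope). Without APR-246 library 1, CHAC1 reversed to 0.26 (0.80 with the GC slope) and ASNS to 0.30 (0.18). For the reversals and the counts that moved, the cause was not tested beyond the samples or genes each setting removes.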
